A study of Homo sapiens with 12 samples.

Results

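The respiratory chain genes were the 102 genes, of 19423 in each table, that encode subunits of complexes I to V or carry the NDUF and ATP5 names of a few assembly factors. They were taken by symbol (NDUF, SDHA to SDHD, UQCR, CYC1, COX4 to COX8, ATP5 and the protein-coding MT- genes), and 16 names of pseudogenes or antisense transcripts were left out. The members comprised 89 nuclear genes and the 13 protein-coding genes of the mitochondrial genome, in all 44 of complex I, 4 of complex II, 11 of complex III, 16 of complex IV, 17 of complex V and 10 assembly factors. NDUFA4 and its paralogue NDUFA4L2 were counted with complex IV, where the NDUFA4 protein is found.

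The respiratory chain sits in the inner mitochondrial membrane, where complexes I and II feed electrons from NADH and succinate into coenzyme Q, complex III passes them to cytochrome c, and complex IV reduces oxygen. Complexes I, III and IV pump protons, and complex V, the ATP synthase, uses the resulting gradient to make ATP. Complex II is built from nuclear genes alone, whereas the other complexes combine subunits from nuclear genes with a few that are transcribed from mitochondrial DNA as long polycistronic RNAs and cut into single messengers.

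The libraries came from A375, an established human melanoma line, and 253J, an established human bladder carcinoma line. Each line was offered fluorescent beads of 2.4 µm for 24 h and sorted by flow cytometry 5 times, after 5 generations of culture each time. The positive branch kept the bead-bearing cells (1 bead or more) at every sort, the negative branch the cells free of beads, and both branches were grown in the same pyruvate-supplemented medium and exposed to the beads alike. Each branch of each line had 3 poly(A) RNA-seq libraries, so 6 libraries entered each line's comparison, and the labels name no separate cultures behind them, so p-values measure the spread between these libraries, which may be technical.

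Recovered depth was 14576506 to 17916519 reads per library. The labels' sample numbers form a low set (at most 12) and a high set (at least 19), whose libraries stood apart. Low numbers were carried by A375 positive replicates 1 and 2, A375 negative replicate 1 and, on both sides of the 253J sort, replicates 1 and 2. Nuclear members were higher in the high set in both branches for 59 of 89 genes in A375 and 62 of 89 in 253J. Pigment genes were present in A375, with DCT at 3859 to 15184, PMEL at 2459 to 4506, MITF at 3324 to 5462 and S100B at 1475 to 2126, while MLANA was at 41.9 to 94, TYR at 7.1 to 92.6 and TYRP1 at 3 to 19.7. Keratin KRT8 was at 7962 to 10303 in 253J and EPCAM was at most 6.1 there, so that epithelial marker was near 0. Of leukocyte markers PTPRC reached at most 14.2 in A375 and 0.9 in 253J. In 253J ITGAM stood higher, at 12 to 31, and CSF1R reached 9.1.

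In A375, bead-positive cells differed from negative cells in 9 respiratory chain genes, 3 higher and 6 lower. The members' median change lay near 0 in the fit without a block. The genes that fell were NDUFV1, NDUFS3 and NDUFS8 of complex I and ATP5A1, ATP5L and ATP5E of complex V, and those that rose were NDUFS5 of complex I, SDHB of complex II and ATP5F1 of complex V. Changes were small, between 0.20 and 0.36 in size on the log2 scale. Values are normalized counts, each log2 fold change is the positive minus the negative mean of log2(value + 1), and a gene was called at an adjusted p (limma, Benjamini-Hochberg over all tested genes) under 0.05. Of the 14118 genes tested, 4.99% were called higher and 5.26% lower in positive cells, so the members' counts of 3 and 6 among 101 tested lie near that background. The median log2 fold change of the members was 0.00081 with 50 of 101 below 0, against -0.00017 over all genes tested. With the number set as a block, these medians were 0.033 for the members and -0.0047 for all genes tested. In bulk libraries, fewer cells with a transcript and less transcript per cell cannot be told apart.

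By complex, the nuclear members of A375 had median log2 fold changes of -0.00011 in complex I (37 genes), 0.07 in complex II (4), 0.02 in complex III (10), -0.04 in complex IV (12), 0.02 in complex V (15) and -0.03 in assembly factors (10). No complex moved as a unit: complexes I and V each held genes called in both directions. Complexes III and IV and the assembly factors held no called gene. All 3 positive libraries were above all 3 negative ones for 12 members, where 14.4% of all genes tested behaved so, and below them for 10, against 15% of all genes.

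**Figure D1:**
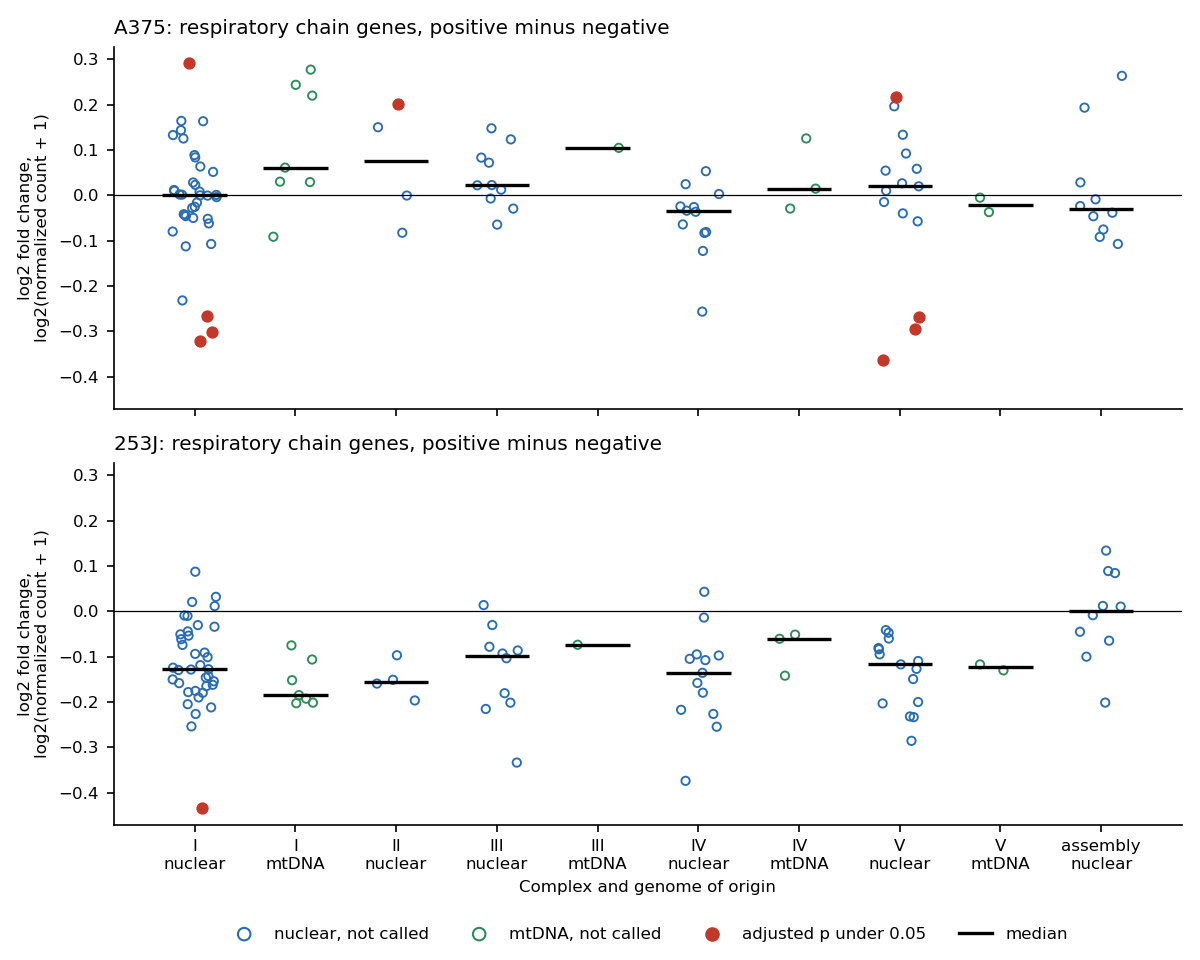
Log2 fold change (positive minus negative, vertical axis) of each member by complex and genome of origin in A375 (top) and 253J (bottom), with the median as a bar and filled points at an adjusted p under 0.05. In A375 the medians lie near 0 with called genes on both sides. In 253J the points of complexes I to V lie mostly below 0, and NDUFB9 is the gene called without a block.

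The A375 members that fell in complex I lie on chromosome 11. NDUFV1, the subunit that binds NADH and flavin (67605653 to 67612554 on chromosome 11 of GRCh38), was at 2126, 2170.1 and 2389 in positive and 2636, 2819 and 2889.6 in negative libraries (log2 fold change -0.32 ± 0.06 SE, adjusted p = 0.0196). NDUFS8, a core subunit with iron-sulfur clusters (68030617 to 68036644 on chromosome 11), was at 969.6, 968 and 1026 in positive and 1176, 1177 and 1208 in negative libraries (log2 fold change -0.27 ± 0.05 SE, adjusted p = 0.0206). Every positive library lay below every negative one for both genes. NDUFS3, a core subunit of the coenzyme Q-binding module (47565336 to 47584562 on chromosome 11), was at 1389, 1415 and 1579 in positive and 1744, 1898 and 1753 in negative libraries (log2 fold change -0.30 ± 0.07 SE, adjusted p = 0.0304), again without overlap. Its annotated exons share 22.4% of their length with other genes, and no source used here gives the strand setting of the counting, so its counts are less certain.

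The complex V members that fell came from chromosomes 11, 18 and 20. ATP5L, subunit g of the membrane part (118401154 to 118431496 on chromosome 11), was at 1564, 1595 and 1620.4 in positive and 1956, 2060.4 and 1853 in negative libraries (log2 fold change -0.29 ± 0.06 SE, adjusted p = 0.0167). ATP5A1, the alpha subunit of the catalytic head (46080248 to 46104334 on chromosome 18), was at 6127, 6407 and 6884 in positive and 7898, 8562 and 8514 in negative libraries (log2 fold change -0.36 ± 0.06 SE, adjusted p = 0.0101), the strongest fall among the members. ATP5E, the epsilon subunit of the central stalk (59025467 to 59032382 on chromosome 20), was at 2616, 2817 and 2998 in positive and 3249, 3614 and 3282 in negative libraries (log2 fold change -0.27 ± 0.07 SE, adjusted p = 0.0472). The positive libraries lay below the negative ones for all 3 genes, and 23.2% of the exonic length of ATP5E is shared with other annotated genes.

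All 3 members that rose lie on chromosome 1. NDUFS5, an accessory subunit of complex I (39026318 to 39034636 on chromosome 1), was at 2151, 2190.0 and 2427 in positive and 1892, 1872 and 1764 in negative libraries (log2 fold change 0.29 ± 0.06 SE, adjusted p = 0.0268). ATP5F1, subunit b of the peripheral stalk of complex V (111448864 to 111462773 on chromosome 1), was at 3558, 3666 and 3674 in positive and 3121, 3190.0 and 3067 in negative libraries (log2 fold change 0.22 ± 0.05 SE, adjusted p = 0.0235). SDHB, the iron-sulfur subunit of succinate dehydrogenase (17018722 to 17054170 on chromosome 1), was at 3062, 3146 and 3228 in positive and 2733, 2744 and 2725 in negative libraries (log2 fold change 0.20 ± 0.05 SE, adjusted p = 0.0305). For each of them the lowest positive library was above the highest negative one.

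**Figure D2:**
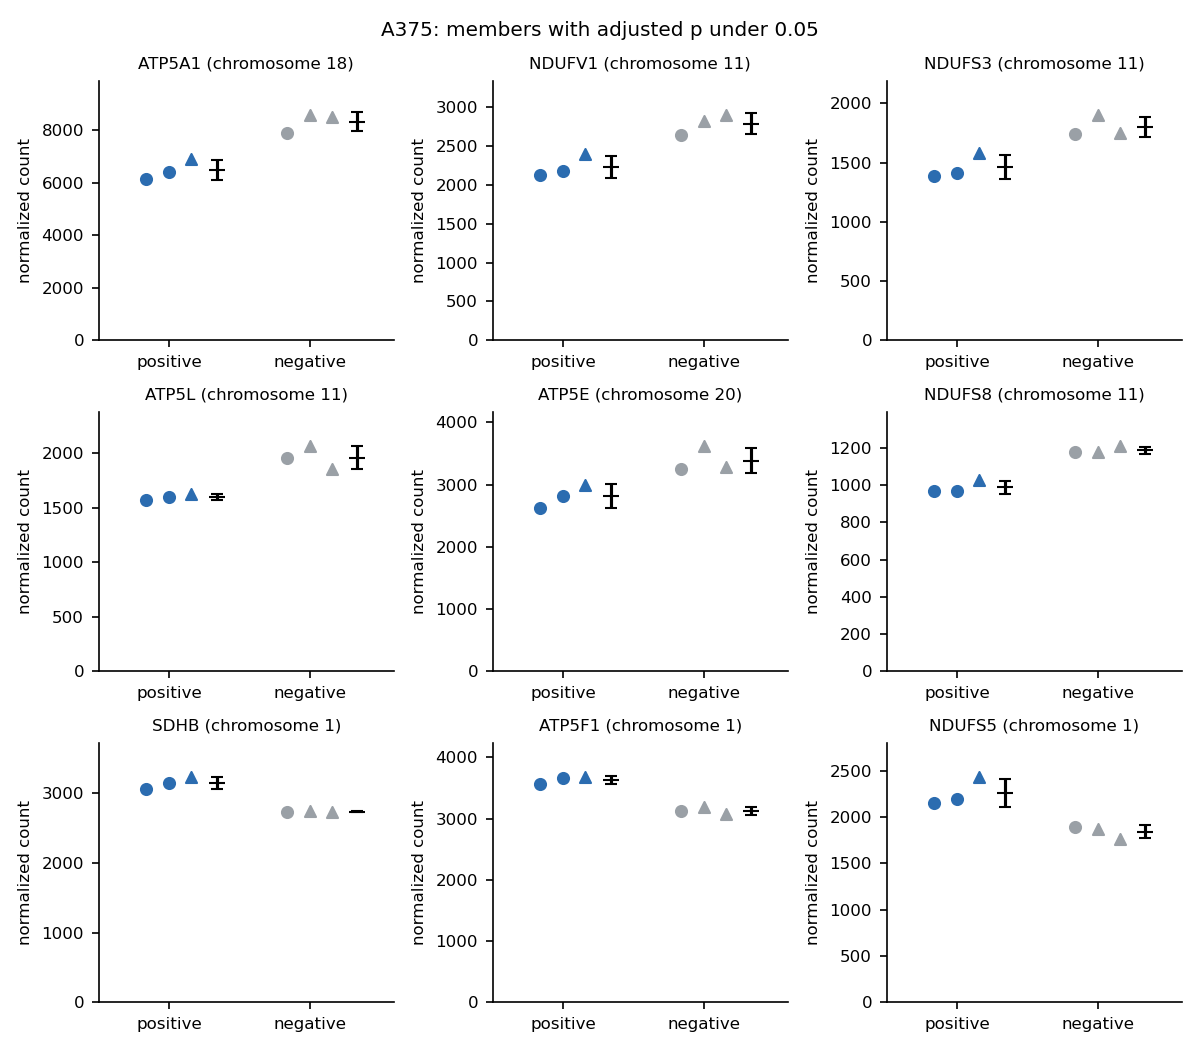
Normalized counts of the 9 members called in A375, each library a point (circles low number set, triangles high number set) with mean and SD of 3 libraries beside them; vertical axes start at 0. The 6 genes of chromosomes 11, 18 and 20 are lower in positive libraries and the 3 genes of chromosome 1 are higher, without overlap.

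The chromosomes of the called members were themselves shifted in A375. Other protein-coding genes of chromosome 11 had a median log2 fold change of -0.27 (684 genes, 89.0% below 0), and the 7 members there a median of -0.27. On chromosome 1 the other genes had a median of 0.16 (1230 genes) and the 7 members 0.15. Chromosome 18 stood at -0.22 (168 genes) and chromosome 20 at -0.13 (320 genes). The 2 members on chromosome 18 were at -0.36 and -0.05, and the 2 on chromosome 20 at -0.27 and 0.19. These 4 chromosomes were picked because the 9 called members lie on them, so the lack of calls elsewhere follows from that choice. They held 18 tested members, and the other 70 nuclear members tested lay elsewhere. Within 5 Mb of each gene, other genes had a median of -0.30 around NDUFV1, -0.29 around NDUFS8, -0.29 around NDUFS3, -0.29 around ATP5L, -0.30 around ATP5A1 and -0.18 around ATP5E. The corresponding medians were 0.23 around NDUFS5, 0.23 around ATP5F1 and 0.20 around SDHB. With the median of each chromosome taken out, limma called 0 members (9 at an unadjusted p under 0.05), against 9 members before by limma, 9 by edgeR and 11 by DESeq2. The edgeR calls were not the same genes: ATP5E missed the threshold there (adjusted p = 0.05004) and MT-ND6 passed it (0.0487). DESeq2 called the 9 genes of limma and MT-ND5 and MT-ND6. Across the 88 nuclear members tested, the member's change and the neighbours' median had a Pearson r of 0.77, a description over genes measured in the same libraries.

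**Figure D3:**
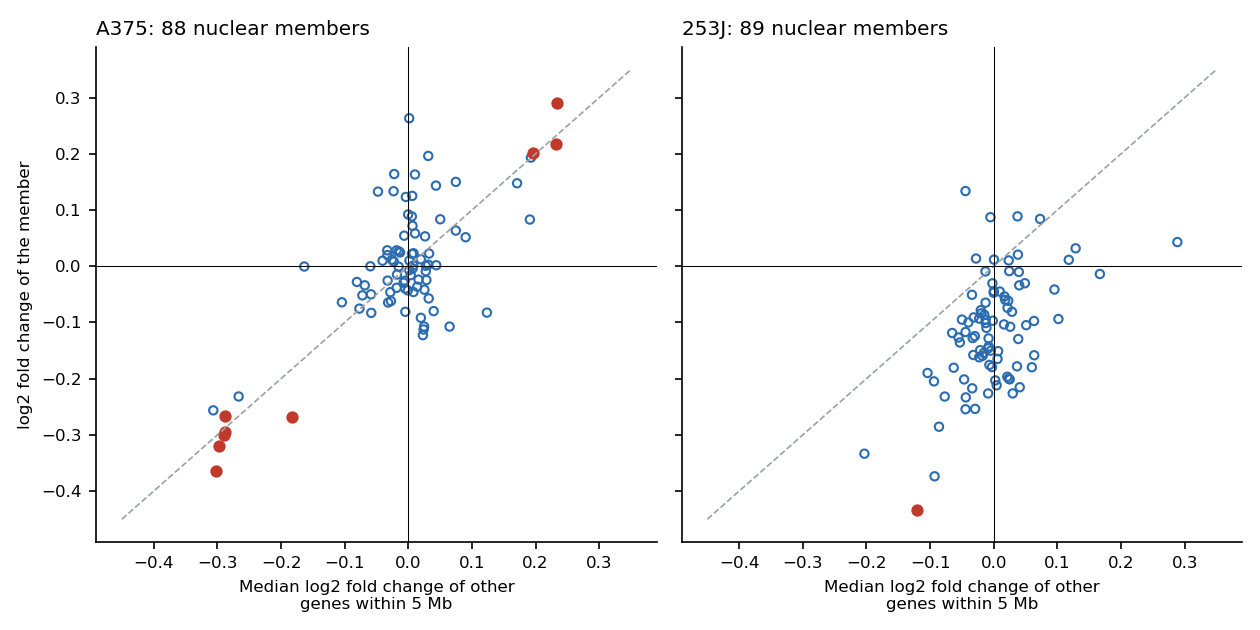
Log2 fold change of each nuclear member (vertical axis) against the median log2 fold change of other protein-coding genes within 5 Mb (horizontal axis); filled points have an adjusted p under 0.05 and the dashed line marks equality. In A375 the 9 called members lie near the line at its ends; in 253J 82 of 89 members lie below it.

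The exception on chromosome 11 was SDHD. SDHD, a membrane anchor of complex II on chromosome 11, was at 568, 611 and 725 in positive and 618, 643 and 633 in negative libraries, and the branches overlapped (log2 fold change -0.00, adjusted p = 0.998) although genes around it had a median of -0.16. COX8A, a small subunit of complex IV on chromosome 11, lay with its neighbours (median -0.31) but missed the threshold, at 1532, 1571 and 1787 in positive and 1901, 1931 and 1998 in negative libraries (log2 fold change -0.26 ± 0.07 SE, adjusted p = 0.0541). That gene had the smallest p of complex IV. UQCR10, a small accessory subunit with the smallest p in complex III, was at 1341, 1270.5 and 1338 in positive and 1244, 1218 and 1165 in negative libraries (log2 fold change 0.12 ± 0.05 SE, adjusted p = 0.214). Among assembly factors the smallest p belonged to NDUFAF8, a complex I assembly factor, at 850.2, 879 and 727 in positive and 826, 656 and 579 in negative libraries (log2 fold change 0.26 ± 0.13 SE, adjusted p = 0.277).

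Stretches of 100 bases before the RefSeq start (GRCh38.p14, read on the strand of each gene, 5′ to 3′) are shown for the 4 chromosome 11 members that fell together, to set side by side promoters of genes that share a chromosome and a direction. Capitals mark the letters CCGGAAG, the core bound by ETS factors such as GABP, searched on both strands.
NDUFV1: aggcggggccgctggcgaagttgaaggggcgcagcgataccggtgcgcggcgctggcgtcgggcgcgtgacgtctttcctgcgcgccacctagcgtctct
NDUFS8: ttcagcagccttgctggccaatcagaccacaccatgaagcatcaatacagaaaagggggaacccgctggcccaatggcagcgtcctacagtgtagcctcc
NDUFS3: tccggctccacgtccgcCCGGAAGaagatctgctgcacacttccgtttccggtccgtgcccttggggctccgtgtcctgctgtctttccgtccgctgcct
ATP5L: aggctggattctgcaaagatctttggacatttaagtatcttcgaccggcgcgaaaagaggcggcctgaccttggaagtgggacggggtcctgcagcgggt
These lie at chr11:67606836-67606935, chr11:68030581-68030680, chr11:47578974-47579073 and chr11:118401506-118401605, all on the plus strand. NDUFS3 alone of these 4 windows held the letters. Over 250 bases before the start, CCGGAAG was found on either strand for 18 of 71 matched nuclear members (25.4%) and for 8.52% of the 35116 promoter windows of all genes. The NRF1 letters GCGCATGCG stood in 7 of the 71 (9.86%) against 1.64%, and the YY1 letters AAGATGGCG in 1 (1.41%) against 0.652%. Of the called members with a window, 1 of 2 that rose (SDHB) and 2 of 6 that fell (ATP5A1 and NDUFS3) held at least 1 of these 3 letter strings. A match of letters is not a binding site.

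Limma called none of the 13 mitochondrially encoded genes in A375 (2 at an unadjusted p under 0.05), edgeR called MT-ND6 higher and DESeq2 called MT-ND6 and MT-ND5 higher. The median log2 fold change of the 13 was 0.03. Together they took 6.96%, 6.61% and 6.76% of the normalized counts in the positive and 6.24%, 6.77% and 6.57% in the negative libraries, which overlapped. The nuclear members took 0.991%, 1.03% and 1.12% against 1.01%, 1.10% and 1.06%, which overlapped as well. MT-ND6, the complex I subunit encoded on the light strand, was at 17912, 16355 and 15093 in positive and 14338, 13332 and 13003 in negative libraries without overlap (log2 fold change 0.28 ± 0.07 SE, adjusted p = 0.0518 by limma, 0.0487 by edgeR and 0.0181 by DESeq2). MT-ND5, a proton-pumping subunit of complex I whose gene abuts MT-ND6 on the opposite strand, was at 63290.4, 59595 and 52732 in positive and 51696, 48012 and 48291 in negative libraries, also without overlap (log2 fold change 0.24 ± 0.08 SE, adjusted p = 0.0933 by limma, 0.0757 by edgeR and 0.0467 by DESeq2). Reads from the opposite strands cannot be told apart without the strand setting, so counts of MT-ND6 are uncertain.

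Of the 7 mitochondrial genes of complex I, 6 lay above 0 in A375. Of these MT-ND6 and MT-ND5 alone passed in any of limma, edgeR and DESeq2 without a block and with every library. With the number set as a block, limma also called MT-ND4 higher (adjusted p = 0.0251) and MT-ND3 lower (adjusted p = 0.00263). In that fit 15.6% of all genes tested were called higher and 16.5% lower. MT-ND1 was at 32033, 29804 and 21892 in positive and 26941, 22402 and 21929.6 in negative libraries (log2 fold change 0.22, adjusted p = 0.403), where the lower values belonged to the high number set in both branches. MT-ND3 was the lowest, at -0.09 (adjusted p = 0.371), while MT-ND2, MT-ND4 and MT-ND4L stood at 0.03, 0.06 and 0.03. In complex III, MT-CYB, the cytochrome b subunit, stood at 0.10. The catalytic complex IV subunits MT-CO1, MT-CO2 and MT-CO3 were at 0.13, 0.01 and -0.03, and the complex V subunits MT-ATP6 and MT-ATP8, which overlap in the genome, at -0.01 and -0.04.

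Per kilobase of exonic length, the mitochondrial genes in A375 spanned 27022 (MT-ND1) to 245611 (MT-ATP8) normalized counts per kb. All of them lay above the highest nuclear member, ATP5B, the catalytic beta subunit, at 8984 per kb. Exonic length here is the union over annotated transcripts, which lowers the per-kilobase level of nuclear genes with long rare isoforms. MT-ATP8 is only 207 bases long and shares 22.2% of them with MT-ATP6, which stood at 142950 per kb in A375. The per-kilobase level of MT-ATP8 is therefore less certain. In 253J the same scale gave 49168 (MT-ND1) to 197681 (MT-CO2) and 6469 for ATP5B. Copies of mitochondrial sequence in the nuclear genome are listed too, and the copy MTATP6P1 stood at 15901 to 18682 in A375 and 11750.4 to 15974 in 253J, so reads shared with such copies are split in a way that no source used here describes.

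With the number set as a block, 29 members were called in A375, 20 higher and 9 lower, where 15.6% and 16.5% of all genes tested were called. This fit is given because the sets are unevenly spread over the A375 branches. Of the 20 members added, those with the smallest p were MT-ND6, ATP5G3, MT-ND5 and SDHC. MT-ND6 differed by 0.26 within the low and 0.20 within the high set (adjusted p with the block 9.6e-07), and MT-ND5 by 0.25 and 0.13 (8.1e-06). ATP5G3, an isoform of the rotating ring subunit c of complex V, was at 2666, 2839 and 3120.3 in positive and 2342, 2695 and 2488 in negative libraries. Its overlap of branches vanished within sets, with differences of 0.23 and 0.27 (adjusted p with the block 3.7e-06). SDHC, a membrane anchor of complex II, differed by 0.19 and 0.23 (3.9e-05).

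The A375 calls moved with the number of genes called overall. Limma called 0 members without positive replicate 1 (15 at an unadjusted p under 0.05), without positive replicate 2 (13) and without negative replicate 2 (13), and 1, ATP5L, without negative replicate 3, but 13 without positive replicate 3 and 11 without negative replicate 1. Over all genes, 1447 were called with every library, 487 to 592 in the fits with 0 or 1 member and 1789 and 1881 in those with 13 and 11. Averaging libraries of the same number set gave 0 calls (9 at an unadjusted p under 0.05).

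In 253J, bead-positive cells had slightly lower values for nearly the whole respiratory chain. Limma called 1 gene without a block and 32, all lower, with the replicate number as a block (6.75% of all genes were called lower in that fit). NDUFB9, an accessory subunit of the membrane arm of complex I, fell, and 91 of 102 members lay below 0 with a median log2 fold change of -0.12, against 0.0015 over the 14189 genes tested. Of all genes tested, 0.564% were called lower and 0.529% higher, and without the block the count of 1 among 102 members lies near that. The 3 positive libraries lay below all 3 negative ones for 31 members, where 9.83% of all genes did so, and above them for 1 member, NDUFAF3, where 10.4% of all genes did. Both genomes shared the direction: 78 of 89 nuclear members and all 13 mitochondrial ones were below 0, with medians of -0.11 and -0.13. In median, nuclear members stood at 1210 normalized counts in positive and 1333 in negative cells. They took 0.831%, 0.828% and 0.895% of normalized counts in positive and 0.888%, 0.907% and 0.981% in negative libraries. Their share was lower at each replicate number, but positive replicate 3 exceeded negative replicate 1, so the branches overlapped.

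By complex, nuclear medians in 253J were -0.13 in complex I (33 of 37 below 0), -0.16 in complex II (4 of 4), -0.10 in complex III (9 of 10), -0.14 in complex IV (12 of 13) and -0.12 in complex V (15 of 15). The 10 assembly factors among the members, which are not part of the finished complexes, were the exception, with a median of 0.00 and 5 of 10 below 0. This did not extend to assembly factors outside the NDUF names, of which 30 of 47 lay below 0, with a median of -0.07. Among the 10 the smallest p belonged to NDUFAF3, a complex I assembly factor, at 586, 581 and 576 in positive and 539.6, 544 and 506 in negative libraries (log2 fold change 0.13 ± 0.07 SE, adjusted p = 0.421).

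NDUFB9 (124539101 to 124580648 on chromosome 8 of GRCh38) was at 867, 862 and 959 in positive and 1168, 1187 and 1277 in negative libraries (log2 fold change -0.43 ± 0.07 SE, adjusted p = 0.0226). Every positive library was below every negative one, and the difference was -0.44 within the low and -0.41 within the high number set. Its exons share 21% of their length with genes on the opposite strand. CYC1, the heme-carrying cytochrome c1 subunit of complex III, was at 2744, 2579 and 2939 in positive and 3371, 3364 and 3669 in negative libraries and missed the threshold by limma (log2 fold change -0.33 ± 0.07 SE, adjusted p = 0.0644). COX6C, a nuclear subunit of complex IV, was at 676, 687 and 760.1 in positive and 858, 884 and 1013 in negative libraries (log2 fold change -0.37 ± 0.08 SE, adjusted p = 0.0831). These 3 genes lie on chromosome 8, as do UQCRB, a small complex III subunit, at a log2 fold change of -0.18, and the assembly factor NDUFAF6 at 0.09. Other genes within 5 Mb had medians of -0.12 over 27 genes around NDUFB9, -0.20 over 68 genes around CYC1, -0.09 over 35 genes around COX6C, -0.06 over 36 genes around UQCRB and 0.04 over 34 genes around NDUFAF6.

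In complex V, ATP5J, a peripheral stalk subunit on chromosome 21, was at 1456, 1566 and 1489.8 in positive and 1777, 1827 and 1895 in negative libraries (log2 fold change -0.29 ± 0.06 SE, adjusted p = 0.0647). ATP5G1, an isoform of the ring subunit c, was at 2202, 2249 and 2252 in positive and 2565, 2699.9 and 2616 in negative libraries (log2 fold change -0.23 ± 0.05 SE, adjusted p = 0.0810). The branches did not overlap for either gene. In complex II the smallest p belonged to SDHB, at 1399, 1303 and 1422 in positive and 1473, 1536 and 1595 in negative libraries (log2 fold change -0.16 ± 0.06 SE, adjusted p = 0.305). Chromosome 21 held 3 members with a median of -0.23, against -0.08 over 108 other genes. Relative to genes within 5 Mb, 82 of 89 nuclear members lay lower, with a median difference of -0.11, and with chromosome medians taken out limma called 0 members (26 at an unadjusted p under 0.05). NDUFB9 then stood at -0.38 (adjusted p = 0.0625), against -0.43 before, so most of its difference remained.

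**Figure D4:**
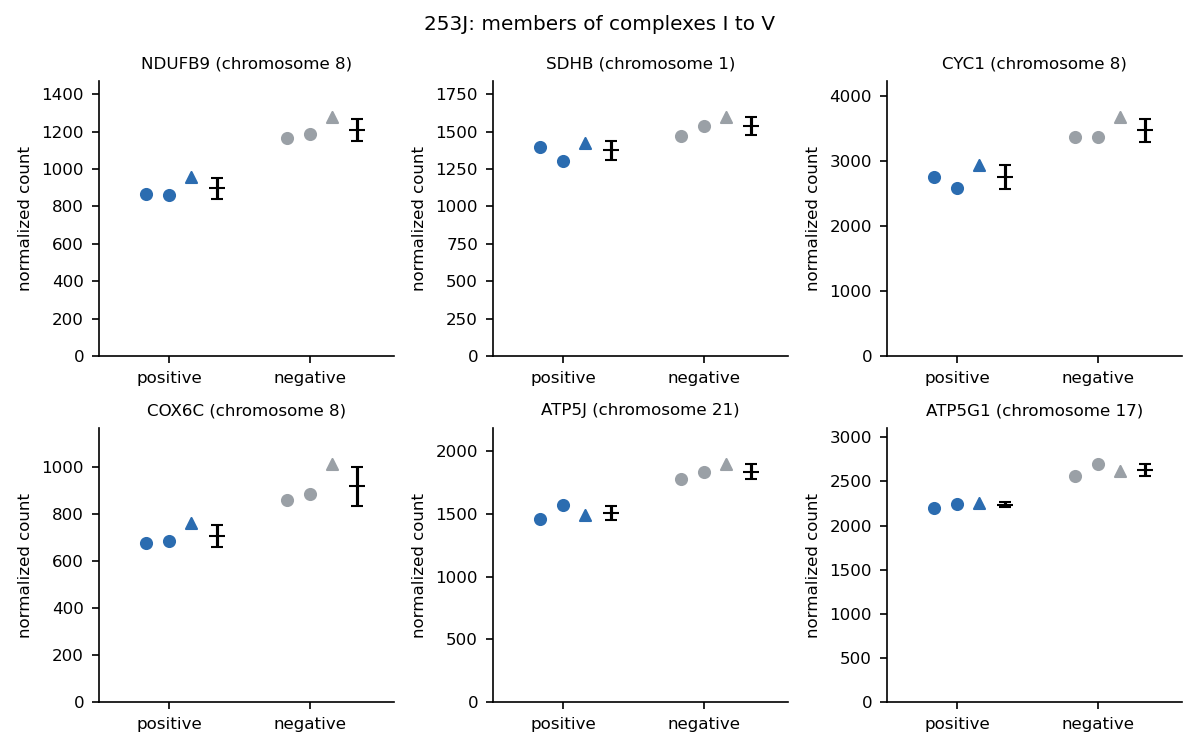
Normalized counts in 253J of NDUFB9 (complex I), SDHB (II), CYC1 (III), COX6C (IV) and ATP5J and ATP5G1 (V), each library a point (circles low number set, triangles high number set) with mean and SD of 3 libraries; vertical axes start at 0. Positive libraries lie below negative ones in each panel, and NDUFB9 alone passed limma without a block.

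The mitochondrial genes of 253J were lower in positive cells for all 13; limma called none without a block (2 at an unadjusted p under 0.05), as did edgeR and DESeq2, and 5, all of complex I, with the replicate block. They took 6.99%, 7.03% and 7.30% of normalized counts in positive and 7.27%, 7.44% and 8.43% in negative libraries, lower at each of the 3 replicate numbers, although positive replicate 3 exceeded negative replicate 1. MT-ND1 was at 44739.9, 46187 and 40233 in positive and 51646, 52388 and 46831 in negative libraries (log2 fold change -0.20 ± 0.08 SE, adjusted p = 0.323), and MT-ND6 was at 25823, 25892 and 27460.5 in positive and 29204, 30125 and 31145 in negative libraries (log2 fold change -0.19 ± 0.06 SE, adjusted p = 0.219). Both had no overlap between branches. Complex I genes had the lowest median of the complexes, -0.18 over 7 genes, with MT-ND3 at -0.20, MT-ND4 at -0.18, MT-ND4L at -0.15, MT-ND5 at -0.11 and MT-ND2 at -0.08. MT-CYB stood at -0.07, MT-CO1, MT-CO2 and MT-CO3 at -0.14, -0.05 and -0.06, and MT-ATP6 and MT-ATP8 at -0.13 and -0.12. Negative replicate 3 was the highest library for 11 of these genes.

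**Figure D5:**
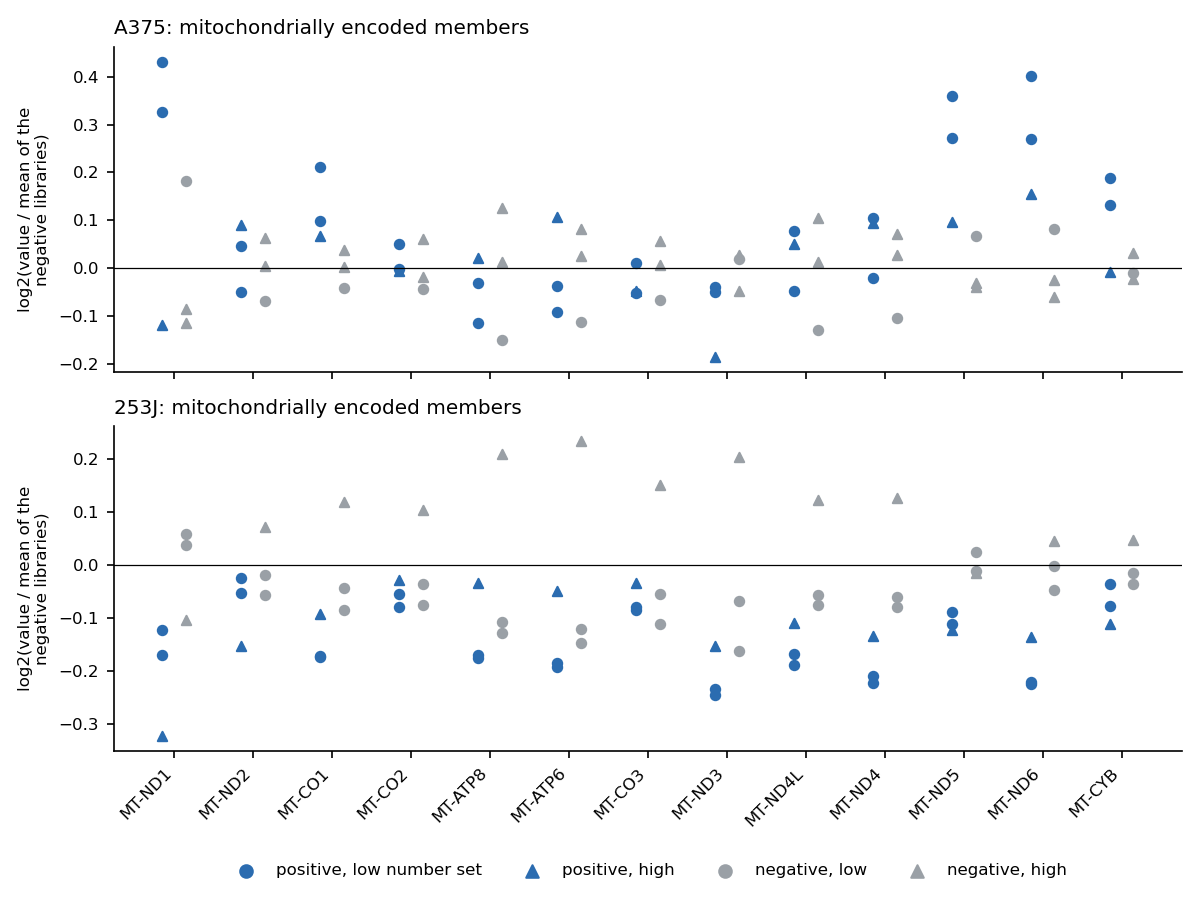
Log2 ratio of each library to the mean of the negative libraries of its line (vertical axis) for the 13 mitochondrially encoded genes in genome order, in A375 (top) and 253J (bottom). In 253J positive libraries lie at or below 0 for every gene, while in A375 MT-ND5 and MT-ND6 are the genes most clearly higher in positive libraries.

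The correlation check given with the processing sets replicate 3 of 253J apart from replicates 1 and 2, as the number sets do. It does not show how libraries 1 and 2 pair across branches. With the replicate number as a block 32 members were called, all lower, where 6.75% of all genes tested were called lower and 7.28% higher. They were 9 nuclear and 5 mitochondrial genes of complex I, 2 of complex II, 4 of complex III, 6 of complex IV and 6 of complex V, all of these last groups nuclear, and no assembly factor. NDUFB9 had an adjusted p of 6.7e-05 in that fit, CYC1 1.5e-04, COX6C 3.7e-04, ATP5J 1.0e-03 and ATP5G1 0.00194. With the number set as the block, 47 members were lower and 0 higher, where 8.87% and 9.78% of all genes were called. Of the 46 members added there, CYC1, COX6C, ATP5J and ATP5G1 had the smallest p, and the within-set differences were -0.34 and -0.32 for CYC1, -0.35 and -0.41 for COX6C, -0.25 and -0.35 for ATP5J and -0.24 and -0.22 for ATP5G1 (low, then high set). DESeq2 called 4 members without a block, NDUFB9, CYC1, COX6C and ATP5J. Limma without a block called 0 members when positive replicate 1 (10 at an unadjusted p under 0.05), positive replicate 2 (12), negative replicate 1 (26) or negative replicate 2 (17) was left out, 5 without negative replicate 3, and 0 with same-set libraries averaged (5 at an unadjusted p under 0.05).

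Other gene lists, abundant short transcripts among them, also had values below 0 in 253J. Of 82 cytosolic ribosomal protein genes tested, 79 lay below 0 with a median of -0.13, and limma called 0 of them, or 41 lower with the replicate block. Below 0 were also 62 of 78 mitochondrial ribosomal protein genes (median -0.07) and 16 of 20 coenzyme Q and cytochrome c genes (-0.08). So were 18 of 27 tricarboxylic acid cycle and pyruvate entry genes (-0.09) and 22 of 40 mitochondrial DNA expression genes (-0.0069). Among other well-expressed protein-coding genes (mean of at least 500), the median log2 fold change was -0.06 for an exonic length under 2 kb (335 genes), -0.01 for 2 to 4 kb (1394), 0.02 for 4 to 8 kb (2603) and 0.05 for at least 8 kb (1503). Nuclear members in the same length classes had medians of -0.12, -0.13, -0.10 and -0.10, lower in each class. The part of transcript length in the members' values was not tested.

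Of the paralogues picked for description, those measured were NDUFA4L2 and UQCRHL. NDUFA4L2, the hypoxia-induced paralogue of NDUFA4, was at 4.2, 5.7 and 5.1 in positive and 4, 2 and 3 in negative libraries in A375, below the filter for testing. In 253J it was at 20.3, 11.6 and 20.3 in positive and 14.5, 18.5 and 31.1 in negative libraries, with overlap (log2 fold change -0.25 ± 0.34 SE, adjusted p = 0.796). UQCRHL, a near copy of the complex III hinge gene UQCRH whose reads may be shared with it, was at 117, 118 and 108 in positive and 93.8, 121 and 112 in negative libraries in A375 (log2 fold change 0.08 ± 0.13 SE, adjusted p = 0.745). In 253J UQCRHL was at 51.3, 42.2 and 57.8 in positive and 50.1, 56.3 and 43.1 in negative libraries (log2 fold change 0.01 ± 0.18 SE, adjusted p = 0.983), so both paralogues overlapped between branches wherever tested. No gene named COX4I2, COX6A2, COX6B2, COX7A1 or COX7B2 was among the 19423 listed.

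The change between branches differed between the lines for 10 members, each with the higher log2 fold change in A375. Of 12509 genes tested for this difference, 3.18% were called with the higher change in A375 and 2.97% with the lower, and of 101 members 10 and 0 were. The median difference (A375 minus 253J) was 0.11 over the members, with 83 of 101 above 0, and -0.01 over all genes tested. ATP5F1 differed by 0.33 ± 0.06 SE (adjusted p = 0.00774), rising in A375 and standing at -0.11 in 253J. ATP5G1 differed by 0.37 ± 0.07 SE (adjusted p = 0.0107), from 0.13 in A375 and -0.23 in 253J, and SDHB by 0.36 ± 0.07 SE (adjusted p = 0.0116), from 0.20 and -0.16. ATP5F1 and SDHB are chromosome 1 genes, and ATP5G1 lies on chromosome 17, whose other genes had medians of -0.0038 in A375 and -0.03 in 253J. MT-ND6 differed by 0.47 ± 0.10 SE (adjusted p = 0.0120), NDUFB9 by 0.41 ± 0.09 SE (adjusted p = 0.0229) and NDUFB10, a complex I accessory subunit, by 0.34 ± 0.08 SE (adjusted p = 0.0237). The remaining ones were UQCR10, CYC1, NDUFS5 and ATP5J. The count was 4 to 10 with single libraries left out, lowest, at 4, without 253J positive replicate 1, 253J positive replicate 2 or A375 negative replicate 3, and 5 to 6 without A375 positive replicate 1, A375 positive replicate 2, A375 negative replicate 2 or 253J negative replicate 2. A replicate block raised the count to 18, 16 of them positive, and a number-set block to 47, 44 of them positive.

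Genes around the respiratory chain were read against the same shares of all A375 genes, 4.99% called higher and 5.26% lower. In A375, assembly factors outside the NDUF names had 1 of 47 tested higher and 1 lower: ATPAF1, a complex V assembly factor on chromosome 1, rose from 1277, 1271 and 1280.1 to 1471, 1487 and 1628 (log2 fold change 0.26 ± 0.06 SE, adjusted p = 0.0287), and TMEM126A, a complex I assembly factor on chromosome 11, fell from 379, 379 and 372 to 263, 286 and 267 (-0.47 ± 0.07 SE, adjusted p = 0.00794). Of the tricarboxylic acid cycle and pyruvate entry genes, 1 of 27 rose and 1 fell. IDH3B, the beta subunit of NAD-dependent isocitrate dehydrogenase, rose from 2655, 2532 and 2604 to 3049, 3089.6 and 3210.5 (0.26 ± 0.05 SE, adjusted p = 0.0145). IDH2, the NADP-dependent mitochondrial enzyme, fell from 1201, 1260.2 and 1264 to 993, 930 and 1015 (-0.34 ± 0.06 SE, adjusted p = 0.0111). Both isocitrate dehydrogenase genes kept their call with chromosome medians taken out (adjusted p 0.00501 and 0.0174), unlike ATPAF1 (0.405) and TMEM126A (0.162).

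Among genes for expression of mitochondrial DNA, 1 of 40 was called in A375, the single-stranded DNA-binding protein SSBP1, lower in positive cells (-0.21 ± 0.05 SE, adjusted p = 0.0299, and 0.0635 with chromosome medians taken out). Mitochondrial ribosomal proteins had 3 of 78 higher and 3 lower, of which MRPL48 (-0.51, adjusted p = 0.00527) and MRPL16 (-0.41, adjusted p = 0.00624), both on chromosome 11, had the smallest p. With chromosome medians taken out none of the 6 kept its call by limma (0.105 for MRPL48 and 0.214 for MRPL16). Cytosolic ribosomal proteins had 1 of 82 higher and 8 lower, led by the paralogue RPL22L1 (-1.14, adjusted p = 7.35e-05) and RPS25 (-0.41, adjusted p = 0.00171). With chromosome medians taken out RPL22L1 (7.57e-05), RPS27L (0.00756) and RPS21 (0.0327) kept their calls, whereas RPS25 (0.0943) and the other 5, with adjusted p of 0.166 to 0.541, lost them. None of 20 coenzyme Q and cytochrome c genes was called (4 lower and 3 higher with the number-set block, where 16.5% and 15.6% of all genes were called). In 253J limma called 0 genes in each of these 6 lists; with the replicate as a block, where 6.75% of all genes were called lower and 7.28% higher, it called 2 lower of the coenzyme Q and cytochrome c genes, 1 higher and 4 lower of the assembly factors, 5 lower of the mitochondrial DNA expression genes, 2 higher and 5 lower of the tricarboxylic acid cycle genes and 9 lower of the mitochondrial ribosomal proteins, beside the 41 cytosolic ribosomal proteins given above.

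Some cell type markers, including those of each line's own lineage, differed between branches as well. In A375 the stromal and vascular list summed to 518 to 528 in positive and 379 to 391 in negative libraries. An entry named RGS5 was called higher there by limma (1.27, adjusted p = 0.00243), while another entry of that name was not called (adjusted p = 0.587). The melanoma list summed to 12489 to 15709.9 against 15118 to 26953, with TYR (-2.82, adjusted p = 0.0015) and DCT (-1.31, adjusted p = 0.0312) called lower. The urothelial and epithelial list summed to 1030.1 to 1126 against 1337 to 1422, with PPARG (-1.18, adjusted p = 0.00182) and KRT18 (-0.28, adjusted p = 0.0417) lower. With chromosome medians taken out, limma kept RGS5 (0.00514), TYR (0.00281) and PPARG (0.00252) but not DCT (0.0517) or KRT18 (0.0680). DCT was also higher in the high number set, at 6208 against 3859 and 4417 in positive and 15184 and 14845 against 7154 in negative libraries. Leukocyte markers summed to at most 31.5 in A375 and 43.1 in 253J. In 253J the stromal list summed to 26488 to 29177 against 23041 to 24249, nearly all of it RGS5, the melanoma list to 1242 to 1286 against 1218 to 1290.2, and the epithelial list to 37652 to 39413 against 35694 to 41897, with CDH1 lower (-0.54, adjusted p = 0.0194). The summed leukocyte, pigment and epithelial lists overlapped between the 253J branches. The part of these markers in the members' values was not tested.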

How the data were processed

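Poly(A) RNA from 12 libraries was measured, 3 per branch and line. The deposited unit is a signal: per-gene counts that the authors divided by 1 size factor for each library and rounded to 0.1, in 1 table per line. The submitters' processing notes list DESeq2, HTSeq, cutadapt and STAR 2.4.2a, and the build GRCh38; trimming, strand setting and annotation release are not given in those sources. Whole reads were recovered by multiplying by each library's size factor (100% of values whole within 0.06), and the factors scale libraries within a line only. Positions and gene types come from GENCODE release 29 (99.6% of identifiers matched), promoter windows from RefSeq GRCh38.p14 (71 of 89 nuclear members matched by symbol).

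The plan named edgeR for raw counts and limma otherwise. Because the values are normalized, limma-trend (limma 3.58.1, R 4.3.3) was run on log2(value + 1), which understates changes of low genes, on genes averaging at least 10, per line and without covariate. The difference between lines was a contrast in 1 fit of 12 libraries. edgeR 4.0.16 and DESeq2 1.42.0 were run on recovered reads as alternatives, beside other pseudocounts, filters, scalings, blocks, chromosome medians and left-out libraries. On simulated data with 14118 genes (A375) limma recovered 24% of 1.25-fold and 66% of 1.5-fold changes, and with 14189 genes (253J) 26% and 70%.

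Replicate numbers come from the labels' titles. For A375 the deviations of same-numbered libraries had correlations of 0.41, -0.27 and 0.40, for 253J of 0.29, 0.19 and 0.50. Same-numbered libraries thus correlated positively throughout in 253J alone. There libraries 1 and 2 also correlate across numbers (0.21 and 0.17), so how these pair is not shown. Members and lists were chosen with earlier results of these data known. The text names the 13 mitochondrial members, every called nuclear member, the member with the smallest p in a complex without a call, fixed paralogues, up to 2 called genes per list, up to 6 members differing between lines and up to 4 added by the number-set block; SDHD, UQCRB, NDUFAF6, ATP5B and further members called by other fits or without overlap were named after their values were seen.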

Additional observations from a re-analysis of the deposited data

Results flagged for a closer look

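The test of the difference between lines singled out 10 members whose change from negative to positive cells was higher in A375 than in 253J (limma contrast, 12 libraries, Benjamini-Hochberg over 12509 genes). The differences of log2 fold changes were 0.33 for ATP5F1, 0.37 for ATP5G1, 0.36 for SDHB, 0.47 for MT-ND6, 0.41 for NDUFB9, 0.34 for NDUFB10, 0.34 for UQCR10, 0.36 for CYC1, 0.44 for NDUFS5 and 0.30 for ATP5J. By limma without a block, ATP5F1, SDHB and NDUFS5 were called higher in A375 on chromosome 1, and NDUFB9 was called lower in 253J on chromosome 8. The other 6 were called in neither line alone in that fit. With the replicate as a block, limma called all of these 6 lower in 253J, where 6.75% of all genes tested were called lower. Without a block, MT-ND6 was called in A375 by edgeR and DESeq2, and CYC1 and ATP5J in 253J by DESeq2. ATP5F1, ATP5G1, SDHB and MT-ND6 passed in 12 of 12 fits with a single library left out, NDUFB9 in 8, UQCR10 in 6, NDUFB10 and NDUFS5 in 5, CYC1 in 4 and ATP5J in 1.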

How the results depend on the processing

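The A375 count of 9 members stayed within 1.5 times (8 to 12) with other pseudocounts, filters and scalings, edgeR, DESeq2 and the replicate block (12), and the 253J count of 1 stayed at 1 with other pseudocounts, filters, scalings and edgeR. Taking out chromosome medians gave 0 in both lines (9 members in A375 and 26 in 253J at an unadjusted p under 0.05), and so did averaging same-set libraries (9 and 5), a fit with 4 values per line. In A375 the count was 16 in the high set, 18 in the low set and 29 with the number-set block, and 0 to 13 with single libraries left out. In 253J it was 4 by DESeq2, 51 in the low set, 47 with the number-set block, 32 with the replicate block and 0 to 5 with single libraries left out; the high set alone has 1 library a branch and no test. Members differing between lines numbered 47 with the number-set block, 18 with the replicate block and 4 to 10 with single libraries left out. The cause of these moves was not tested.

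The median log2 fold change of mitochondrial members in A375 was 0.14 in the low set and -0.0043 to 0.084 with single libraries left out, and in 253J -0.22 in the high set; the nuclear medians moved by less than the spread between replicates (-0.04 to 0.06 in A375, -0.15 to -0.06 in 253J). Of 900 single-gene values under alternatives, over 46 results, 740 kept direction and call, 106 lost and 46 gained a call, 7 untested ones moved by over 1 SE and 1 reversed: NDUFS8 in A375 stood at 0.0014 with chromosome medians taken out. At these depths and 3 libraries a branch, differences near the members' usual size of 0.1 on the log2 scale are below what the test mostly recovers, so a missing call does not show equality.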
